A study of Mus musculus with 8 samples.

Results

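The 40 interferon-stimulated genes described here are genes that cells switch on when an interferon binds its receptor, and they were followed in mouse thymic epithelial cells (TEC) from the embryo to the adult. They were found by symbol among the 27514 genes counted in every library, and all 40 were present. The members were chosen with their levels per library, their order by stage, the contrast of type I and gamma-induced members and their spread among cells already in view, so the values by stage, by arm and among cells are given as a description without a test. The adult cTEC and mTEC were compared with a test, which the choice of members did not name, but their levels were in view as well, so the counts and p-values of that comparison are no independent support for the members as a list. The study captured single TEC across development to see how their transcripts change with age, mainly in the cortical (cTEC) and less in the medullary (mTEC) lineage of the thymus, the organ in which T cells mature. Each of its 8 droplet libraries was counted as unique molecular identifiers (UMI), where 1 UMI stands for 1 captured transcript. The mice were wild-type animals of the strain labelled C57 B6 (CD45.2). The fetal groups, named by days of embryonic age, were total TEC at E13.5 and cTEC sorted at E15.5 or at E17.5, and the postnatal groups were newborn (NB) cTEC, adult cTEC and adult mTEC. The adult groups had 2 libraries each and each younger group had 1.

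All cells were sorted as DAPI-negative, EpCAM-positive and CD45-negative. The cTEC gate added Ly51+ UEA-1-, and the mTEC gate added Ly51- UEA-1+. Newborn mice were 0 to 2 days and adult mice 4 to 6 weeks old per the methods, and the labels did not say how many animals each library pooled. E13.5, E15.5, NB and replicate 1 of each adult group had the gene list of 27998 genes and are called data set 1, and E17.5 and replicate 2 of each adult group had the list of 31053 genes and are called data set 2. The study's methods gave trypsin and EDTA for the embryonic thymi and Liberase, DNase and a Percoll gradient for the newborn and adult thymi, so that fetal against postnatal age and the way the tissue was digested cannot be told apart.

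A limit of 5% on the mitochondrial share of UMIs and of 5000 on the genes found kept 25750 of 28334 deposited cells, at a median depth from 3996 UMIs per cell in adult cTEC replicate 1 to 11386 in adult mTEC replicate 2. The libraries held from 2257967 to 90103548 UMIs, so the adult cTEC values are the least precise. Levels are in CPM, the UMIs of a gene divided by all UMIs of the library and scaled to the same total for each library, summed over the epithelial-like cells of a library, from 493 cells in adult cTEC replicate 1 to 8350 in E17.5 cTEC, and in such sums fewer expressing cells and less RNA per cell cannot be told apart. Their 95% Poisson intervals cover counting error only. The cortical marker Psmb11 was at 667 to 1474 CPM in the cTEC libraries and at 3.85 and 8.57 CPM in the mTEC libraries, and the medullary regulator Aire was at 435 and 399 CPM in the mTEC libraries and at 9.27 CPM or less elsewhere. The pan-leukocyte gene Ptprc did not exceed 3.71 CPM in any library. Adult cTEC replicate 1 stood apart in that it had 5399 CPM of Ccl21a, a chemokine of mTEC, against 873 CPM in replicate 2. In E17.5 cTEC, 2011 of 8350 cells formed a cluster led by haemoglobin genes, which was kept. At most 84 cell barcodes were shared by any of the 28 pairs of libraries.

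Interferons reach cells as type I (alpha and beta), type II (gamma) and type III (lambda) proteins, each with its own receptor. Type I and type III receptors lead through JAK kinases to a complex that contains STAT2 and IRF9, which binds an interferon-stimulated response element (ISRE), while signals from the gamma receptor are read at a gamma-activated site (GAS). The products of these genes degrade viral RNA, modify proteins with ISG15, attack the vacuoles of intracellular parasites or attract T cells, and in the thymus interferon-induced genes are known to be active in TEC without infection. The 40 members were sorted by role into 11 GTPases, 4 transcription factors, 18 antiviral effectors, 4 sensors of foreign nucleic acid, 1 negative regulator and 2 chemokines. For the contrast of the 2 arms, the 11 GTPases stand for genes that gamma induces strongly, and a core of 16 other members stands for genes typical of the type I response, although most members respond to both.

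The promoters are shown first, because the letters that STAT and IRF proteins read were not used to choose the members. RefSeq promoters (GRCm38.p6, 250 bases before and 50 bases from the transcription start) were matched for 32 of the 40 members, which have 36 promoters. Gbp4, Gbp6, Ifi204, Iigp1, Parp14, Rtp4, Usp18 and Zbp1 were not matched. The ISRE core was searched as GAAANNGAA on both strands, in overlapping matches, and was in 21 of the 36 promoters (58.3%), against 8.56% of the 32851 promoters of all genes. The GAS pattern TTCNNNGAA, which reads alike on both strands, was in 9 of the 36 (25%), against 8.30% of all promoters. The core is loose, and its longer form, with A, C and T after it, was in 12 of the 36 promoters (33.3%) and in 0.271% of all. By group, the ISRE core was in 7 of 9 GTPase promoters and 9 of 15 promoters of the type I core, and the GAS pattern was in 4 of 9 GTPase promoters (Gbp5, Gbp7, Igtp and Irgm2) and 2 of 15 of the type I core (Ifit2 and Oas1a). A match is a description of letters, and binding was not measured.

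The stretches that hold these letters in 8 members are printed 5′ to 3′ on the gene's own strand, with the matched letters in capitals. They were picked as the most abundant effector with repeated ISRE letters, 3 genes of the Ifit family, 2 neighbouring GTPases with both patterns, and 1 gene with each pattern alone. All lie upstream of the transcription start.
Isg15, chr4:156200864-156200903, minus strand: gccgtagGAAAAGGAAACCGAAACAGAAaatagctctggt
Ifit1, chr19:34640774-34640818, plus strand: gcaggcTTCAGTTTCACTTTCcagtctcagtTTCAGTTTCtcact
Ifit3, chr19:34583368-34583442, plus strand: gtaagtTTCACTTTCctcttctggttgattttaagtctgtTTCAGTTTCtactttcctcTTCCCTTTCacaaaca
Ifit3b, chr19:34607764-34607838, plus strand: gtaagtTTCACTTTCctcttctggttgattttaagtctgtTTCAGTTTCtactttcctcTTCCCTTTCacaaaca
Gbp2, chr3:142620598-142620627, plus strand: ttttagtTTCACTTTCactgtcttaagcat
Irf1, chr11:53769914-53769948, plus strand: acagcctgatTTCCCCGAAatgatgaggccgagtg
Igtp, chr11:58199506-58199543, plus strand: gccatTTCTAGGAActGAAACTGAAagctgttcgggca
Irgm2, chr11:58214897-58214934, plus strand: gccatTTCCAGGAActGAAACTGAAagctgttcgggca
Isg15 carries overlapping ISRE letters in 1 run. On the opposite strand, Ifit1 carries an overlapping pair and a separate copy, and Ifit3 carries separate copies. The windows of Ifit3 and Ifit3b have the same base at 75 of 75 positions, and these genes are near-identical copies whose UMIs the counting could split, as is also possible within the Gbp, Irgm and Oas families. Igtp and Irgm2 each carry a GAS closely followed by an ISRE in nearly the same letters, Gbp2 shows ISRE letters alone, and the Irf1 window shows a GAS alone.

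Together the 40 members were low in the fetal libraries and high from the newborn onwards. Their summed level was 336 CPM at E13.5, 1000.2 CPM at E15.5, 2148 CPM at E17.5, 7241 CPM in the newborn, 9185 and 6256 CPM in adult cTEC, and 6872 and 3641 CPM in adult mTEC. In ratio to E13.5 TEC, this was 2.98-fold at E15.5, 6.39-fold at E17.5, 21.5-fold in NB cTEC, 27.3-fold and 18.6-fold in adult cTEC, and 20.4-fold and 10.8-fold in adult mTEC. Each postnatal library lay above each fetal one, and the adult cTEC replicates lay on either side of NB cTEC. The summed level of 17 genes of the dissociation and stress response, such as Fos and Jun, was 724, 539 and 982 CPM in the fetal libraries and 11494, 21642, 12435, 9906 and 5446 CPM in NB cTEC, adult cTEC replicates 1 and 2 and adult mTEC replicates 1 and 2. It was thus higher in the same postnatal libraries, and its part in the members' levels was not tested. The single values below run in 1 library order, with the fetal libraries from the youngest to the oldest, then NB cTEC, then adult cTEC replicates 1 and 2, then adult mTEC replicates 1 and 2.

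**Figure D1:**
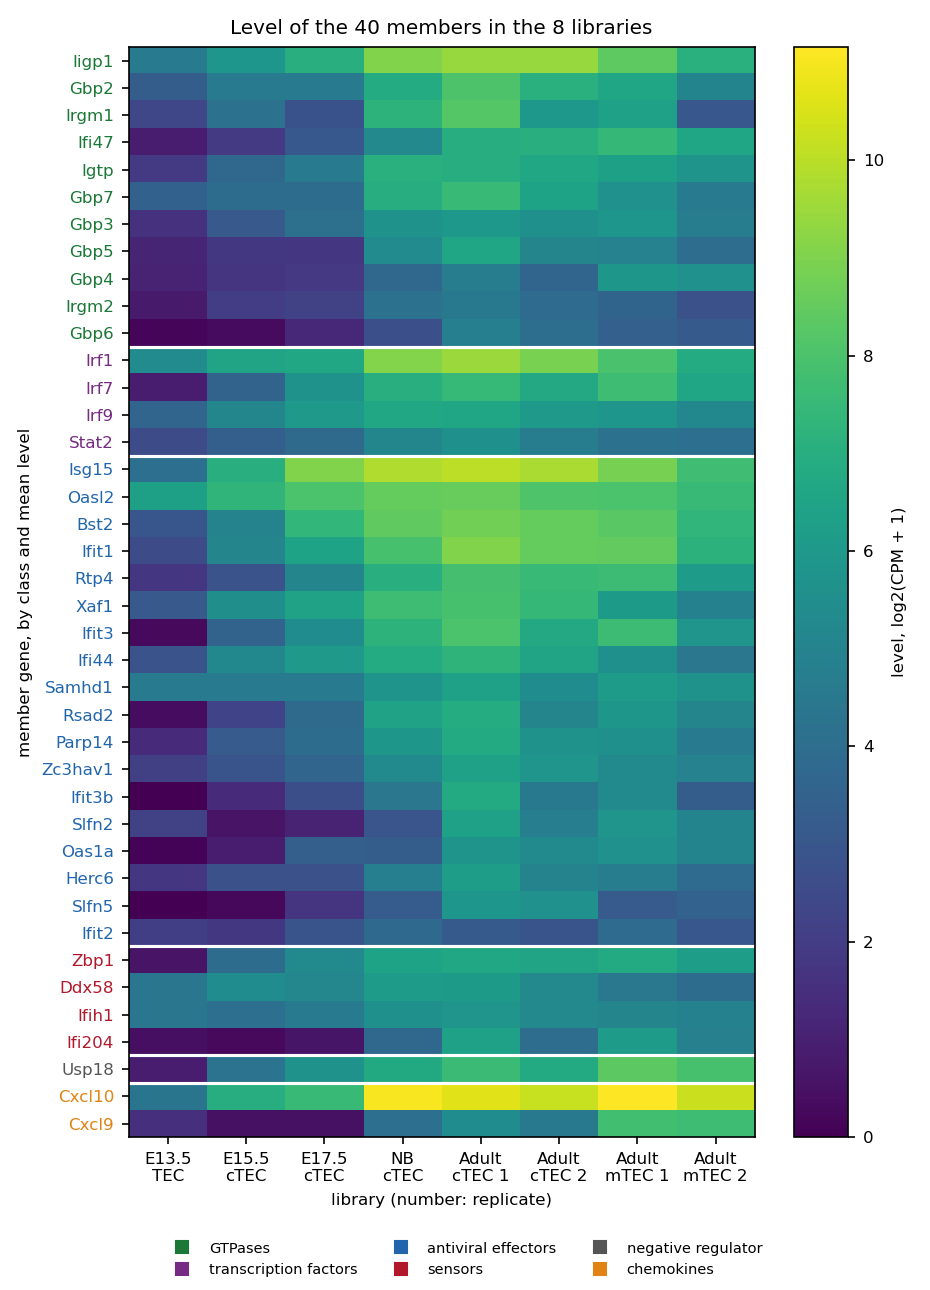
Level of each of the 40 members (vertical axis, grouped by role) in each of the 8 libraries (horizontal axis), as colour on a log2(CPM + 1) scale from dark (low) to yellow (high). Most members are dark in the fetal libraries, and the summed level runs from 336 CPM in E13.5 TEC to 9185 CPM in adult cTEC replicate 1.

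Among the GTPases, Iigp1, an immunity-related GTPase that loads onto the vacuoles of parasites, was the most abundant. Its level in the library order was 23.4, 57.8, 131.5, 525, 696, 693, 335 and 136 CPM. It was already present at E13.5, and the adult cTEC replicates lay above both mTEC replicates. Gbp2, a guanylate-binding protein of the same defence, was at 8.90, 22.5, 24.0, 117, 259, 133, 92.2 and 31.6 CPM. Irgm1, which keeps the other immunity-related GTPases off the cell's own membranes, was at 4.12, 17.55, 5.94, 150, 301, 60.1, 81.7 and 7.19 CPM. Irgm1 was 5.0-fold higher in replicate 1 than in replicate 2 of adult cTEC and 11.4-fold higher in adult mTEC, the highest such ratio of a member in mTEC. Replicates 1 and 2 belong to different data sets, so replicate and data set cannot be told apart. Irgm1 was also lower at E17.5, of data set 2, than at E15.5, of data set 1, so stage and data set cannot be told apart there either. Ifi47, another immunity-related GTPase, was at 0.809, 2.77, 7.34, 37.1, 122, 126, 169 and 93.9 CPM, with 7.34 CPM or less in the fetal libraries and levels in adult mTEC that spanned those in adult cTEC. The summed level of the 11 GTPases was 55.2, 143, 234, 1210, 1915, 1323, 974 and 448 CPM.

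The transcription factors Stat2 and Irf9 are parts of the type I complex. Stat2 was at 5.07, 9.36, 13.7, 34.3, 47.7, 25, 16.8 and 16.0 CPM in the library order. Irf9 was at 11.3, 33.7, 63.7, 101, 97.3, 63.1, 57.2 and 36.0 CPM. Both peaked in NB cTEC or adult cTEC replicate 1, and Irf9 had already passed the levels of adult mTEC at E17.5. Irf1, the factor that gamma induces through the GAS shown above, was the most abundant of the 4, at 40.2, 90.3, 104, 537, 716, 481, 251 and 116 CPM. Irf7, the amplifier of type I induction, was at 0.882, 10.7, 50.2, 131, 175, 104, 206 and 92.5 CPM. Irf1 was at a like level at E15.5 and E17.5, whereas Irf7 was several times higher at E17.5, in libraries of different data sets.

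The antiviral effectors were led by Isg15, the ubiquitin-like protein that is attached to viral and cellular proteins. Its level in the library order was 15.7, 126, 522, 904, 1061, 854, 465 and 216 CPM. Oasl2, of the oligoadenylate synthetase family, was at 79.1, 157, 256, 365, 378, 272, 252 and 184 CPM and was the most abundant member at E13.5. Bst2, or tetherin, which holds budding virions at the membrane, was at 6.99, 31.1, 166, 349, 436, 366, 315 and 160 CPM. Ifit1, which binds viral RNA with an incomplete cap, was at 4.93, 32.3, 88.8, 243, 525, 369, 355 and 143 CPM. Isg15 and Bst2 were several times higher at E17.5 than at E15.5, in different data sets, while Oasl2 spanned the narrowest range of the 4. No UMI of Ifit3b or Slfn5 was found at E13.5, which allows a level of up to 0.221 CPM (3 counts).

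The sensors fell into a pair present from E13.5 and a pair that was not. Ddx58, or RIG-I, which detects viral RNA ends, was at 20.1, 41.7, 35.2, 68.7, 67.2, 37.4, 21.4 and 14.4 CPM. Ifih1, or MDA5, which detects long viral RNA, was at 20.1, 15.9, 23.7, 47.3, 55.6, 36.9, 32.8 and 29.3 CPM. In adult mTEC the level of Ddx58 was near that at E13.5, and that of Ifih1 lay above it. Zbp1, a sensor of left-handed nucleic acid that triggers necroptosis, was at 0.515, 14.5, 39.6, 88.9, 101, 89.6, 112 and 75.5 CPM. Ifi204, a DNA sensor, was at 0.368, 0.218, 0.556, 12.7, 82.0, 14.9, 70.1 and 28.3 CPM. Ifi204 was near 0 in all fetal libraries, and its replicates differed more than its lineages did.

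Usp18, which removes ISG15 from proteins and restrains the type I receptor, was at 0.809, 18.2, 52.1, 109, 195, 111, 321 and 241 CPM and was highest in adult mTEC. The chemokines Cxcl9 and Cxcl10 both draw T cells through the receptor CXCR3, and their patterns differed. Cxcl10 was the most abundant of the 40 members by mean level, at 19.2, 124, 184, 2104, 1623, 1181, 2287 and 1214 CPM. Cxcl9, which is mostly induced by gamma, was at 1.91, 0.437, 0.433, 16.0, 42.6, 21.8, 216 and 209 CPM. Cxcl10 was at 1181 CPM or more in all postnatal libraries, while Cxcl9 reached its high level in adult mTEC and was below 1 CPM at E15.5 and E17.5.

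Within data set 1, a member was taken to set in at the first stage with at least 10 CPM. In E13.5 TEC, 10 members had set in (Gbp7, Iigp1, Irf1, Irf9, Isg15, Oasl2, Samhd1, Ddx58, Ifih1 and Cxcl10), 11 more did so in E15.5 cTEC, 15 in the newborn and the last 4 in adult cTEC replicate 1 (Gbp6, Oas1a, Slfn5 and Slfn2). For the GTPases the counts at these stages were 2, 3, 5 and 1 of 11, and for the type I core they were 4, 6, 5 and 1 of 16. The share of all genes that set in at each stage was not counted, so these counts do not set the members apart from other genes. By E15.5 the GTPases Gbp2, Gbp7, Igtp, Irgm1 and Iigp1 had set in, while Gbp3, Gbp4, Gbp5, Gbp6, Irgm2 and Ifi47 had not. Of the type I core, Irf7, Ifit1, Ifit3, Isg15, Oasl2, Xaf1, Ifi44, Ddx58, Ifih1 and Usp18 had set in by then, while Ifit2, Ifit3b, Rsad2, Oas1a, Herc6 and Rtp4 had not. At a threshold of 5 CPM no member set in as late as the adult, and at 20 CPM the count for E13.5 was 6 and that for the adult was 8.

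Steps between stages were read as differences of log2(CPM + 5) within a data set, where a step of 1 is 2-fold. The counts of members past 2-fold depend on the pseudocount of 5 CPM. With 20 CPM the members at least 2-fold higher were 5, 25 and 8 in the 3 steps of data set 1 and 18 in that of data set 2, while with 1 CPM 2 members were at least 2-fold lower in the first step. From E13.5 TEC to E15.5 cTEC, 16 members were at least 2-fold higher and 0 at least 2-fold lower, against 4.53% and 3.58% of the 10636 genes with a mean of at least 5 CPM. The median step was 0.79 for the members and -0.02 for all genes, and by arm 3 of 11 GTPases (median 0.50) and 7 of 16 of the type I core (median 0.92) passed 2-fold. From E15.5 to NB cTEC, 39 members were at least 2-fold higher and 0 lower, against 4.02% and 1.93% of all genes. The median step was 2.10 for the members and 0 for all genes, and it was 2.44 for the GTPases and 2.02 for the type I core. The highest steps were those of Cxcl10 (4.03) and Rtp4 (3.57), and the exception was Ddx58 (0.66). From NB cTEC to adult cTEC replicate 1, 13 members were at least 2-fold higher and 0 lower, against 8.93% and 3.85% of all genes, with medians of 0.58 and -0.06. Slfn2, a Schlafen family member, had the highest of these steps (2.92), followed by Ifi204 (2.30). The adult end of this step is replicate 1 alone, where Slfn2 was at 83.4 CPM and Ifi204 at 82.0 CPM. In replicate 2, of the other data set, they were at 26.5 and 14.9 CPM, against 6.65 and 12.7 CPM in NB cTEC. Replicate 2 thus lay above NB cTEC for Slfn2 and near it for Ifi204. The way the thymus was digested changed at the same step as the 39 members did, so age and digestion cannot be told apart there. Over the 3 steps of data set 1, the step from E15.5 to NB was the highest for 32 members, that from E13.5 to E15.5 for 2 (Ifi44 and Ddx58) and that from NB to adult for 6 (Gbp6, Ifit3b, Oas1a, Slfn5, Slfn2 and Ifi204), against 30.8%, 33.8% and 35.4% of all genes.

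Data set 2 gave 1 fetal-to-adult step of its own, from E17.5 cTEC to adult cTEC replicate 2. In it 29 members were at least 2-fold higher and 0 lower, against 6.73% and 3.54% of all genes, with medians of 1.44 and 0.01. All 11 GTPases were among them (median 2.24), and 8 of 16 of the type I core (median 1.0). Ifi47 had the highest step (3.40), and Irf9 the lowest (-0.01), being the only member not higher in the adult library. The adult libraries of this step were also digested in another way than the fetal one.

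**Figure D2:**
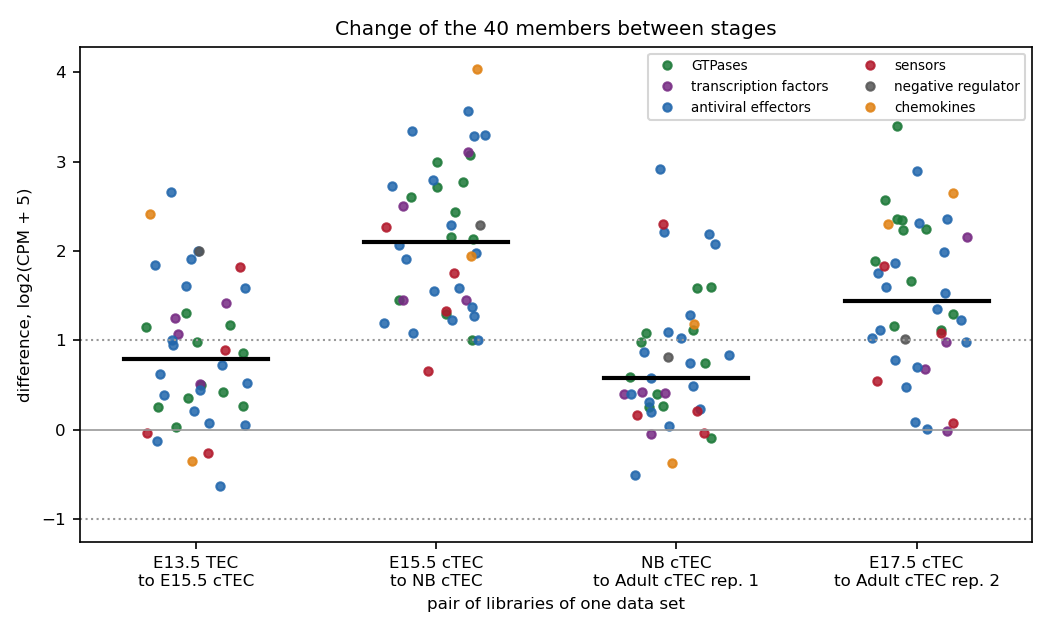
Difference in log2(CPM + 5) of each of the 40 members (points, coloured by role, spread sideways to be seen) between the libraries of 4 pairs of 1 data set, with a black bar for the median of the members and dotted lines at 2-fold. The median is 2.10 from E15.5 to NB cTEC and 0.79, 0.58 and 1.44 in the other pairs.

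For both arms the step from E15.5 to NB was the highest of data set 1 in most members, in 10 of 11 GTPases and 12 of 16 of the type I core, against 30.8% of all genes. A difference between the arms was not tested, and their sums are given side by side. In ratio to E13.5 TEC, the summed level of the type I core was 3.13-fold at E15.5, 7.86-fold at E17.5, 16.0-fold in NB cTEC, 22.6-fold and 15.02-fold in adult cTEC and 14.3-fold and 7.26-fold in adult mTEC. That of the GTPases was 2.59-fold, 4.24-fold, 21.9-fold, 34.7-fold, 24.0-fold, 17.7-fold and 8.13-fold at the same places. The GTPase sum divided by the type I sum was 0.336 at E13.5, with a 95% interval of counting of 0.309 to 0.365. At E15.5 it was 0.278 (0.268 to 0.288), and at E17.5 it was 0.181 (0.178 to 0.184). After birth it was 0.461 in NB cTEC, 0.517 and 0.537 in adult cTEC and 0.414 and 0.376 in adult mTEC. The fetal ratios were all below the postnatal ones, and the lowest was in E17.5 cTEC, the only fetal library of data set 2. Without the most abundant member of each arm (Iigp1 and Isg15), the ratio was 0.214, 0.219, 0.133, 0.399, 0.461, 0.391, 0.339 and 0.320 in the library order, so that the fetal libraries still lay lowest but E13.5 no longer lay above E15.5.

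**Figure D3:**
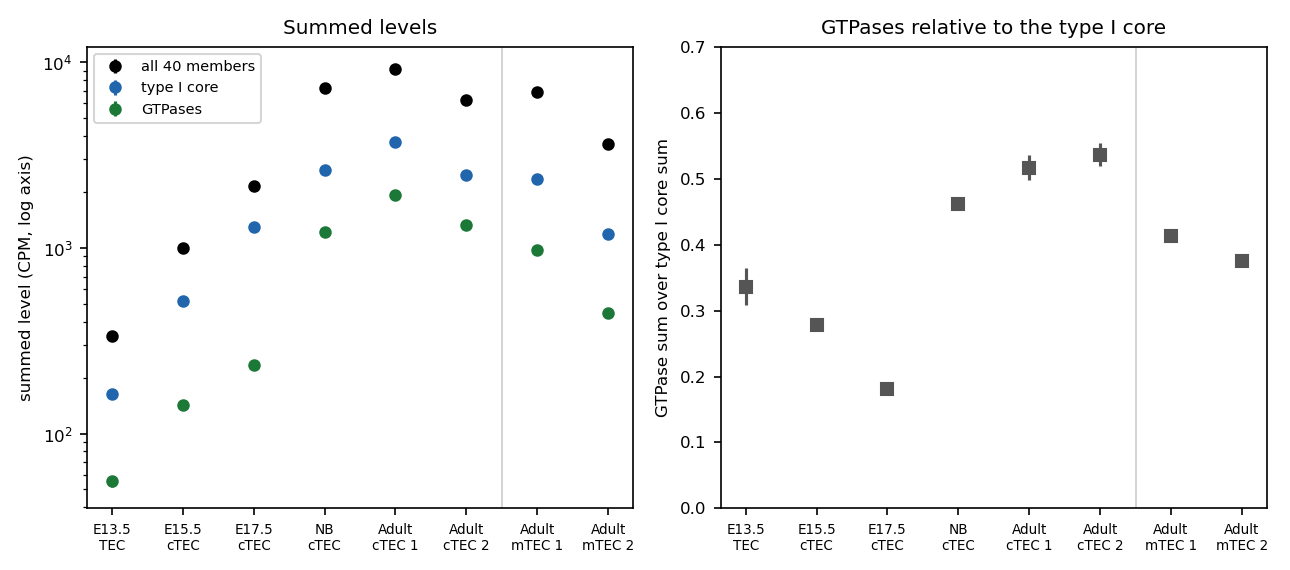
Left, the summed level in CPM on a log axis of all 40 members, of the 16 type I core members and of the 11 GTPases in each library. Right, the GTPase sum divided by the type I sum, which is 0.181 in E17.5 cTEC and 0.537 in adult cTEC replicate 2, with bars for 95% counting intervals in both panels.

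Of the genes upstream of the members, the interferon ligands were almost absent. Ifnb1 had 54 UMIs in 24 cells of adult mTEC replicate 2, 2 UMIs in adult mTEC replicate 1 and none in the other libraries. The type III ligands Ifnl2 and Ifnl3 were at 3.24 and 2.2 CPM in adult mTEC replicate 2, with 218 UMIs in 90 cells and 146 UMIs in 65 cells. Of the Ifnl2 cells 5 were in mTEC I-like clusters, and of the Ifnl3 cells 1 was. Ifng was at 3.24 CPM in adult cTEC replicate 1 and 1.59 CPM in adult mTEC replicate 2. Sorted epithelial cells do not contain most cells that could make these ligands, so their supply in the tissue was not measured. The receptor chain Ifnar1 was present throughout, at 25.3, 34.0, 31.9, 28.9, 18.5, 16.1, 16.9 and 16.3 CPM in the library order. Its partner chain Ifnar2 was at 20.9, 19.0, 34.2, 25.3, 57.4, 38.9, 25.6 and 23.5 CPM. Of the gamma receptor chains, Ifngr1 was at 15.7, 23.4, 34.5, 38.7, 43.5, 32.9, 88.7 and 46.1 CPM and Ifngr2 at 51.2, 64.2, 52.2, 90.8, 55.6, 47.0, 248 and 134.5 CPM. The fetal levels of Ifnar1 lay above the adult ones, whereas Ifnar2 was highest in adult cTEC and both gamma receptor chains were highest in adult mTEC. A list of 92 further genes of the pathway was used for comparison, of which 87 were measured. Its 42 measured further induced genes were read in the steps E13.5 to E15.5, E15.5 to NB, NB to adult and E17.5 to adult. Of them 9, 20, 15 and 11 were at least 2-fold higher, against 4.53%, 4.02%, 8.93% and 6.73% of all genes. Of the 6 receptors of the list 0, 0, 1 and 0 were, too few genes to set beside those shares. No ligand exceeded 3.24 CPM in any library, so with the pseudocount of 5 CPM none could have passed 2-fold.

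The adult lineages were the comparison with replicate libraries, and it was tested with edgeR's quasi-likelihood test on library sums with a term for the data set and Benjamini-Hochberg adjustment over 15627 genes. Of the 40 members, 15 were higher in adult cTEC, 3 were lower and 22 did not pass an adjusted p of 0.05, with 11.2% and 21.2% of all tested genes higher and lower. The median log2 difference, cTEC minus mTEC, was 0.75 for the members and -0.14 for all genes. Among the GTPases 6 of 11 were higher and 1 lower (median 1.13), among the effectors 7 of 18 and 0 (median 0.83), among the transcription factors 1 of 4, among the sensors 1 of 4, and in the type I core 6 of 16 and 1 (median 0.65). With the data set term, the p-values measure how far the lineage difference varied between the 2 data sets. A shift between data sets that both lineages share is taken up by that term and does not count as spread. There were 2 libraries a lineage, which the labels do not tie to separate animals.

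Slfn5, a Schlafen protein, was at 0, 0.182, 2.20, 8.42, 56.5, 48.8, 8.12 and 10.4 CPM in the library order. It was the member with the greatest excess in cTEC, with a log2 difference of 2.44 ± 0.42 (SE) and an adjusted p of 2.1e-06 by edgeR. Xaf1, which antagonises an inhibitor of apoptosis, was at 7.80, 46.1, 84.5, 209, 240.0, 172, 66.8 and 29.3 CPM, a log2 difference between the adult lineages of 2.13 ± 0.39 (adjusted p = 1.0e-05, edgeR). Gbp7 was at 10.0, 14.2, 14.6, 121, 185.3, 87.1, 49.2 and 23.1 CPM, a log2 difference of 1.84 ± 0.38 (adjusted p = 7.4e-05, edgeR). In all 3 genes both cTEC libraries lay above both mTEC libraries. Ifi44, an interferon-induced gene of the type I core, was at 6.32, 35.5, 64.0, 114, 152, 91.1, 48.2 and 20.3 CPM, a log2 difference of 1.84 ± 0.39 (adjusted p = 8.4e-05, edgeR). Irgm1 passed with 2.39 ± 0.41 (adjusted p = 1.7e-06, edgeR), but its libraries overlapped, since replicate 2 of cTEC (60.1 CPM) lay below replicate 1 of mTEC (81.7 CPM), and without the data set term it did not pass (1.93 ± 1.19, adjusted p = 0.28, edgeR). Of the abundant members, Iigp1 was higher in cTEC by 1.64 ± 0.42 (adjusted p = 0.0015, edgeR) and Isg15 by 1.52 ± 0.42 (adjusted p = 0.0027, edgeR), and without the data set term neither passed (adjusted p = 0.066 and 0.061, edgeR). With either cTEC library or adult mTEC replicate 2 left out, Xaf1, Gbp7, Ifi44, Irgm1, Iigp1 and Isg15 did not pass, and Isg15 did not pass without adult mTEC replicate 1 either, while Slfn5 passed with each library left out.

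Cxcl9, Gbp4 and Usp18 went the other way. Cxcl9, at 42.6 and 21.8 CPM in cTEC and 216 and 209 CPM in mTEC, had a log2 difference of -2.87 ± 0.41 (adjusted p = 3.0e-08, edgeR). Gbp4, at 1.10, 2.26, 2.57, 12.8, 25.02, 11.4, 59.1 and 49.0 CPM in the library order, had -1.74 ± 0.41 (adjusted p = 0.000535, edgeR), the only GTPase lower in cTEC, and did not pass with adult cTEC replicate 2 or adult mTEC replicate 2 left out (adjusted p = 0.059 in both, edgeR), whereas Cxcl9 passed with each library left out. Usp18, at 195 and 111 CPM against 321 and 241 CPM, had -0.99 ± 0.39 (adjusted p = 0.040, edgeR), a call that was lost without the data set term (adjusted p = 0.086, edgeR), without the filter on low counts (0.059) and with each library left out in turn (0.052 to 0.38). For all 3 both mTEC libraries lay above both cTEC libraries. Cxcl10, the other CXCR3 ligand, had a log2 difference of -0.34 ± 0.42 (adjusted p = 0.60, edgeR), and neither Bst2 (0.76, adjusted p = 0.14, edgeR) nor Oasl2 (0.50, adjusted p = 0.34, edgeR) nor Ifi47 (-0.09, adjusted p = 0.89, edgeR) passed, which does not show that their levels were alike. In 6 of the 40 members the sign of the difference was opposite in the 2 data sets.

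Of the pathway genes outside the 40, 76 were tested, of which 11 were higher in cTEC, 11 were lower and 54 did not pass, beside the 11.2% and 21.2% of all tested genes given above. The gamma receptor chain Ifngr2 was lower in cTEC, with -1.90 ± 0.39 (adjusted p = 7.3e-05, edgeR), and Il10rb, a chain of the type III receptor, was higher, with 0.94 ± 0.38 (adjusted p = 0.048, edgeR).

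**Figure D4:**
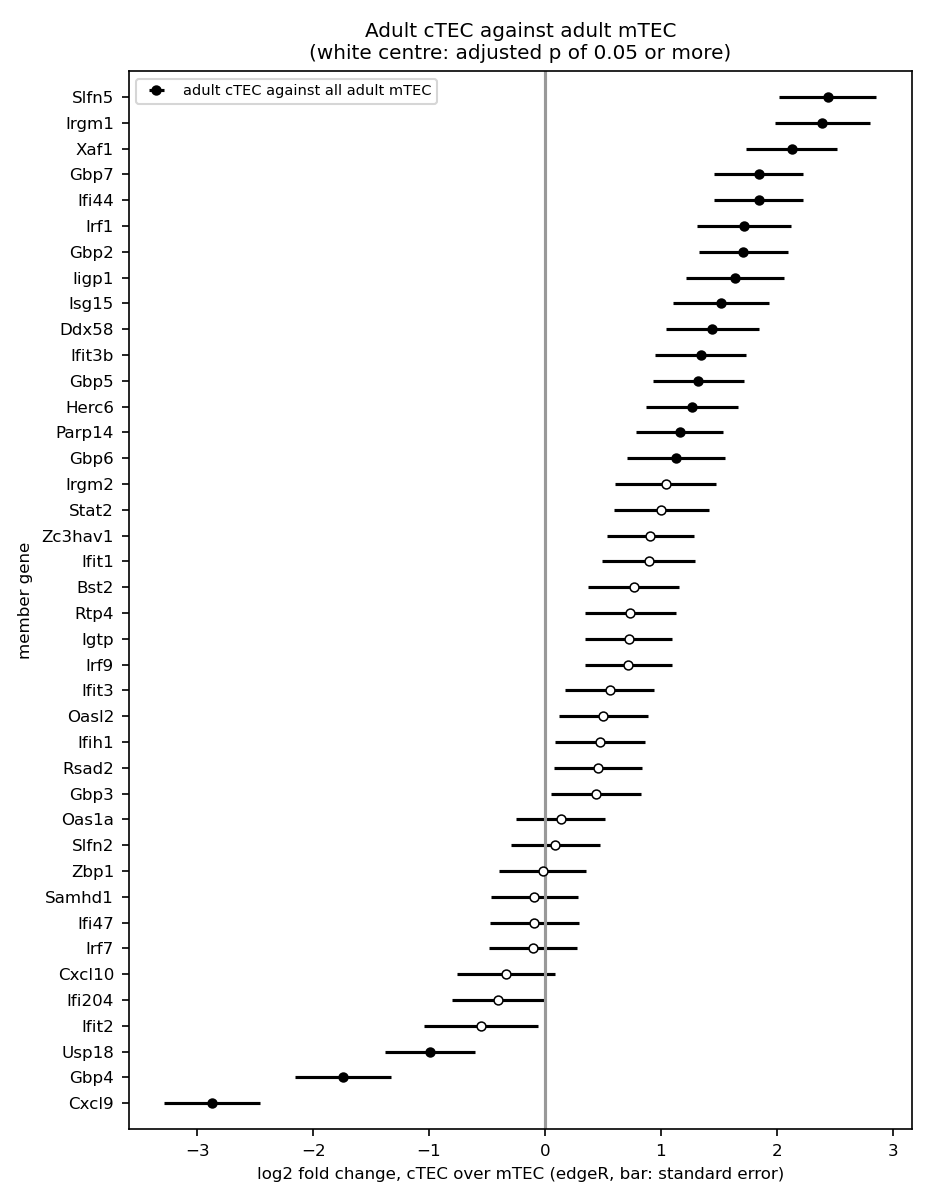
Log2 fold change of each member with its standard error (bars) by edgeR, positive where higher in adult cTEC than in adult mTEC, from 2 libraries a lineage. Points with a white centre had an adjusted p of 0.05 or more, and Slfn5 (2.44) lies at the top and Cxcl9 (-2.87) at the bottom.

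The count of members higher in cTEC depended on each library, and with adult cTEC replicate 1 or adult mTEC replicate 2 left out the share of members called was below that of all genes. With adult cTEC replicate 1 left out it was 1 of 40, with replicate 2 left out 4, with adult mTEC replicate 1 left out 10 and with replicate 2 left out 1, where 4.65%, 5.38%, 5.60% and 2.93% of all tested genes were higher, in fits without the data set term and with the lone library of a lineage taken to vary like the other lineage. In the same order, 0, 1, 5 and 0 of the 11 GTPases and 0, 1, 3 and 0 of the 16 of the type I core were higher. Without the data set term and with all 4 libraries, 6 members were higher and 2 lower, with 1 GTPase and 3 of the type I core among the higher, against 8.53% and 18.0% of all genes higher and lower. The replicates of a lineage also differed as a whole, since 39 of 40 members were higher in replicate 1 than in replicate 2 of adult cTEC (median log2 difference 0.62) and 39 of 40 in adult mTEC (0.78), against medians of 0.13 and 0.07 over 10844 genes. The exceptions were Ifi47 in cTEC (-0.04) and Slfn5 in mTEC (-0.23). The stress list was also higher in replicate 1 of both lineages, as was Ccl21a, at 5399 and 873 CPM in adult cTEC and 6443 and 2893 CPM in adult mTEC, and the mTEC I-like clusters described below held 30.7% and 19.0% of the adult mTEC. Their part in this difference was not tested. The summed level of 13 myeloid markers was 424 and 36.9 CPM in adult cTEC and 492 and 622 CPM in adult mTEC, and that of mesenchymal markers was 510 and 318 CPM in adult cTEC and 99.7 and 69.1 CPM in adult mTEC, and their part in the lineage differences was not tested.

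The summed UMIs of the 40 members per cell, at equal depth, were less spread in NB cTEC than in adult mTEC. Each cell was thinned at random to 2000 UMIs so that depth was equal, which kept all 3438 cells of NB cTEC, all 1585 of adult mTEC replicate 1 and 5492 of 5615 of replicate 2. In NB cTEC a cell had a median of 13 UMIs of the 40 members, with 10% of the cells above 26. In adult mTEC replicate 1 the median was 9 and 10% of the cells exceeded 44, and in replicate 2 the median was 5 and 10% exceeded 19. The variance over the mean, which is 1 for counting alone, was 4.93 in NB cTEC, 18.5 and 9.60 in adult mTEC and 8.44 and 5.58 in adult cTEC. The 10% of cells with most member UMIs held 22.01% of them in NB cTEC and 33.4% and 36.1% in adult mTEC. At this depth Cxcl10 was found in 80.3% of NB cTEC and in 79.6% and 68.9% of adult mTEC, and Isg15 in 72.5%, 39.2% and 25.5%. Without thinning, at median depths of 6012, 9470 and 11354 UMIs, the shares were 90.3%, 94.8% and 92.5% for Cxcl10 and 91.9%, 55.6% and 54.8% for Isg15. Isg15 was thus found in a smaller share of adult mTEC than Cxcl10 in both ways, whereas in NB cTEC the order of the pair turned with thinning. Taken singly, 37 of the 40 members had a variance over the mean above the median of genes of like mean in each of the 3 libraries, and 24 in NB cTEC, 14 in adult mTEC replicate 1 and 10 in replicate 2 were among the 10% most spread of those genes, so single members were not narrowly spread in NB cTEC by that measure. No cell type that lacks these genes was at hand as a background for free RNA, and the lowest shares at equal depth were those of E13.5 TEC, with 1.92% for Cxcl10 and 2.67% for Isg15.

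Across cells at equal depth, the type I core and the GTPases had a Pearson correlation of 0.287 in NB cTEC, 0.694 and 0.510 in adult mTEC and 0.315 and 0.239 in adult cTEC. Spearman's correlation was 0.264, 0.699 and 0.368, and 0.370 and 0.274, in the same order, and without thinning Pearson's was 0.563 in NB cTEC and 0.754 and 0.582 in adult mTEC. The higher value of adult mTEC than of NB cTEC was thus clear in replicate 1, while replicate 2 lay near NB cTEC without thinning. These values describe cells that share a library and its depth.

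Cells of each library were clustered without the members and without the pathway genes, and clusters were named by fixed marker lists. Among the 8 clusters of NB cTEC the summed level of the members went from 5797 to 8686 CPM, a ratio of 1.498 (1.46 to 1.53 by counting). Among the 7 clusters of adult mTEC replicate 1 it went from 2284 to 19435 CPM, a ratio of 8.51 (8.30 to 8.72), and among the 13 of replicate 2 from 1872 to 10665 CPM, a ratio of 5.70 (5.61 to 5.78). The ratio was 17.4 and 8.99 for the type I core and 13.3 and 8.35 for the GTPases in the 2 mTEC libraries. The highest cluster in each mTEC library was 1 called mTEC I-like, from markers such as Ccl21a, Krt5 and Krt14 of the chemokine-producing medullary cells. The lowest was not named, since the marker lists held no genes of dividing cells. Such genes were among its leading ones, as Birc5 and Rrm2 in replicate 1 and Hmgb2 and Cenpa in replicate 2. Its median depth of 15870.5 and 18455.5 UMIs per cell was the highest of the clusters in each library. The part of cell division and depth in its low level was not tested. Isg15 differed 134-fold between the highest and lowest cluster of adult mTEC replicate 1 and 39.2-fold in replicate 2, against 1.75-fold in NB cTEC.

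**Figure D5:**
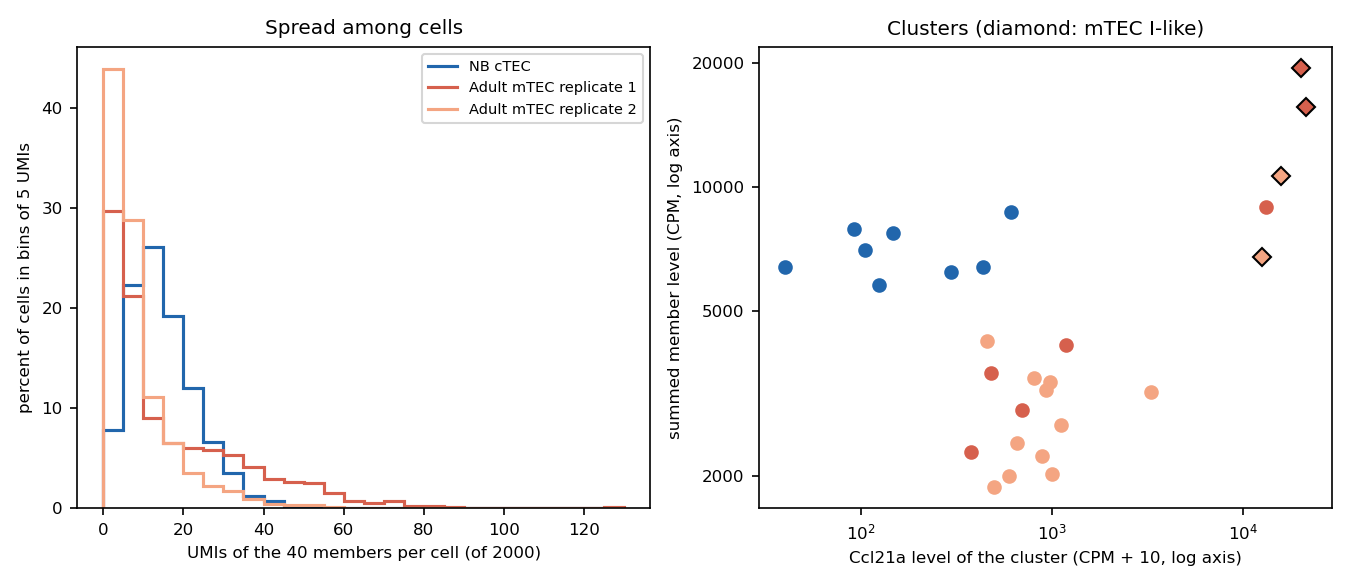
Left, the percent of cells by UMIs of the 40 members per cell, in bins of 5 UMIs, in cells thinned to 2000 UMIs of NB cTEC and the 2 adult mTEC libraries. Right, the summed member level in CPM of each cluster of these libraries against its level of Ccl21a, both on log axes, with diamonds for mTEC I-like clusters, and the clusters of NB cTEC span 5797 to 8686 CPM while those of adult mTEC replicate 1 span 2284 to 19435 CPM.

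The mTEC I-like clusters held 487 of 1585 cells (30.7%) of adult mTEC replicate 1 and 53.4% of its member UMIs, and 1067 of 5615 cells (19.0%) of replicate 2 and 34.7% of its member UMIs. Their summed level was 17560 and 8783 CPM against 4049 and 2775 CPM in the other mTEC. Of the 40 members, 37 in replicate 1 and 31 in replicate 2 had their highest cluster level in an mTEC I-like cluster, as did 28.3% of 10660 and 11.5% of 10741 genes at 5 CPM or more in these libraries. Cxcl9 and Gbp4, both lower in cTEC, were exceptions in both libraries. They were highest in the mTEC II-like cluster of replicate 1, named for Aire and its companions, and in an unnamed cluster of replicate 2 with 583 CPM of Aire. Adult mTEC replicate 1 also had an unnamed cluster with 13173 CPM of Ccl21a, in which the members reached 8944 CPM.

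Ifit3, an antiviral effector, was at 823 and 261 CPM in the mTEC I-like clusters of the 2 replicates and at 35.0 and 21.7 CPM in the other mTEC. Isg15 was at 1646 and 755 CPM against 153 and 125 CPM, and Irf7 at 676 and 307 CPM against 82.0 and 56.4 CPM. Cxcl10 was at 4641 and 2653 CPM against 1665 and 972 CPM, so that it was abundant in both fractions. Gbp4, by contrast, was at 15.8 and 10.7 CPM against 70.6 and 55.5 CPM, the other mTEC being higher in both replicates. Cxcl9 was at 303 and 200.1 CPM against 193 and 210.3 CPM, and its order differed between the replicates.

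Upstream genes differed between these fractions as well. Ifngr1, a chain of the gamma receptor, was at 214 and 120 CPM in the mTEC I-like clusters and at 55.5 and 33.6 CPM in the other mTEC, and its partner Ifngr2 was at 144 and 103 CPM against 276 and 140 CPM. Of the type I receptor chains, Ifnar2 was at 50.1 and 41.7 CPM against 19.1 and 20.4 CPM, and Ifnar1 at 16.4 and 21.2 CPM against 17.03 and 15.4 CPM. Ifnlr1, a chain of the type III receptor, was at 6.33 and 3.61 CPM against 0.53 and 0.49 CPM. The 2 gamma receptor chains thus had opposite orders. The stress list was at 19266 and 10894 CPM in the mTEC I-like clusters against 7434 and 4530 CPM in the other mTEC, the list of cTEC markers at 2811 and 2273 CPM against 751 and 657 CPM, and that of mesenchymal markers at 241 and 130 CPM against 62.4 and 58.9 CPM. The myeloid markers were at 19.6 and 119 CPM against 616 and 707 CPM, and Ptprc had 2 and 0 UMIs in the mTEC I-like clusters. The part of these lists in the members' levels was not tested.

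Because the mTEC sums mix these fractions, adult cTEC was also set beside each fraction of the same data set, as differences of log2(CPM + 5) without a test, since the fractions were chosen after seeing the data. The cTEC sums were not split. Their mTEC I marker list was at 6524 CPM in replicate 1 and 1514 CPM in replicate 2, and whether they mix such cells was not tested. Against the other mTEC, 34 members were higher in cTEC in both data sets and 3 were lower in both (Gbp4, Usp18 and Cxcl9), with 43.0% and 33.4% of 10844 genes higher and lower in both. The median difference was 1.49 and 1.11 for the members and 0.11 and 0.08 for all genes. Against the mTEC I-like clusters, 8 members were higher in cTEC in both data sets (Gbp4, Gbp6, Gbp7, Irgm1, Irf1, Slfn5, Zc3hav1 and Xaf1) and 24 were lower in both, with 38.7% and 29.2% of genes higher and lower in both. The median difference was -0.57 and -0.41 for the members and 0.14 and 0.01 for all genes. Isg15 differed by -0.63 in data set 1 and 0.18 in data set 2, and Iigp1 by -0.61 and 0.35, so the sign of both differed between the data sets. Cxcl9 (-2.69 and -2.94), Irf7 (-1.92 and -1.52) and Ifit3 (-1.67 and -1.27) were lower in cTEC than in the mTEC I-like clusters in both.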

How the data were processed

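The deposited values were raw UMI counts per gene and cell, which the authors made from Chromium version 2 libraries sequenced on a NextSeq, with bcl2fastq 2.17, STAR 2.5.1b, Cell Ranger and the mm10 genome per the labels. The labels name Cell Ranger 2.0.1, while the header of the E17.5 and replicate 2 matrices names 3.0.1. Libraries were mapped to groups by their titles, and replicate 1 or 2 is only a name that follows the data set.

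Cells above 5% mitochondrial UMIs or 5000 genes were removed after the study's methods, as were clusters led by markers of other cells (thymocyte-like, parathyroid-like and thyroid-like). No doublet caller was run, and doublets were limited only by the gene maximum. Counts were summed per library over the 27514 genes of both lists, which held at least 99.1% of UMIs, and divided by the library total to give CPM. Exact Poisson intervals at 95% and floors of 3 counts cover counting error only. The pseudocount for steps was 5 CPM. Adult lineages were tested with edgeR 4.0.16 (filterByExpr, TMM factors, quasi-likelihood, a term for the data set, Benjamini-Hochberg over all genes tested, threshold 0.05) in R 4.3.3, with DESeq2 1.42.0, other normalization, no filter, no data set term, other cell sets and each library left out as alternatives, and the fit was tested on simulated data. Cells were thinned to 2000 UMIs. Clusters were made with leidenalg 0.10.2 at resolution 0.8, with 2000 variable genes, 20 components and 20 neighbours, and with the members and pathway genes left out. A cluster was named from at least 3 fixed markers at 4-fold the other cells (mTEC types 2-fold).

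All 40 members are accounted for by class. Values in every library are given for the 4 most abundant GTPases and effectors by mean CPM, for all other classes and for up to 5 members with the greatest change in each direction between adult lineages. The members, the classes and the gene lists were chosen with earlier results of these data known. Promoters were taken from RefSeq, build GRCm38.p6.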

Additional observations from a re-analysis of the deposited data

Results flagged for a closer look

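Cells that were set aside as not epithelial-like also carried member UMIs, in clusters that no comparison above used. In NB cTEC, 166 thymocyte-like cells had a summed member level of 7215 CPM, against 7241 CPM in the epithelial-like cells of that library, and the cortical marker Psmb11 was at 1673 CPM in them. In E13.5 TEC, 124 parathyroid-like cells had 105 CPM (95% Poisson interval 80.0 to 134) and 130 thyroid-like cells had 141 CPM (117 to 168), both below the 336 CPM of the epithelial-like cells. The thyroid-like cells differed by arm, with the type I core at 22.7 CPM (13.9 to 35.1) against 164.2 CPM in the epithelial-like cells and the GTPases at 61.3 CPM (46.1 to 80.0) against 55.2 CPM, which lies within the interval.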

How the results depend on the processing

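No paired analysis was possible by animal, because the labels give the libraries no replicate numbers. Adult libraries could be matched only by data set, which entered the fit as a term, so that the lineages were compared within each data set. The summed level and the calls of the adult comparison rest on 2 libraries a lineage, and the younger stages on 1 library each, so no spread between samples is known for them. Of the 18 members called between adult lineages, the call was the same for 17 by DESeq2, 18 with RLE factors, 16 without a filter on low counts, 18 over all deposited cells and 8 without the data set term. Without the data set term 6 members were higher in cTEC. With 1 library left out, the number higher in cTEC was from 1 to 10 and the number lower from 1 to 2. Without adult cTEC replicate 1 the log2 difference of Ifit3b was -0.10, and over the libraries left out in turn it went from -0.10 to 2.66. The cause was not tested.

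The summed member level was 316 CPM in E13.5 TEC with all clusters kept, 2304 CPM in E17.5 cTEC without the haemoglobin cluster, and 6341, 6689 and 3492 CPM over all deposited cells of adult cTEC replicate 2 and adult mTEC replicates 1 and 2. Without Cxcl10, the most abundant member, it was 317, 876, 1965, 5138, 7562, 5075, 4585 and 2426 CPM in the library order, and without Iigp1 and Isg15, the most abundant of each arm, the ratio of the GTPases to the type I core was 0.214, 0.219, 0.133, 0.399, 0.461, 0.391, 0.339 and 0.320. The sums are lower by construction. With a pseudocount of 1 CPM, 2 members were at least 2-fold lower from E13.5 to E15.5, that step was the highest for 6 members and the step from NB to adult for 2. With 20 CPM, 5, 25, 8 and 18 members were at least 2-fold higher in the steps E13.5 to E15.5, E15.5 to NB, NB to adult and E17.5 to adult, and the first was the highest step for 1. At an onset threshold of 5 CPM 0 members set in as late as the adult, and at 20 CPM 6 did so at E13.5, 8 in the adult and 1 at no stage. The variance over the mean in NB cTEC and adult mTEC replicates 1 and 2 was 6.72, 27.2 and 13.8 at 3000 UMIs, 21.4, 61.2 and 40.4 without thinning, and 3.67, 15.4 and 8.12 without Cxcl10. At a clustering resolution of 0.4 the highest over the lowest cluster was 1.41, 7.20 and 4.40 in these libraries. The longer ISRE was in 12 promoters.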

Other observations

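Presentation genes that interferon also induces were read from the pathway list. B2m, the invariant chain of class I molecules, was at 137, 566, 959, 2067, 5786, 4025, 10811 and 7564 CPM in the library order, and was highest in adult mTEC. The immunoproteasome subunit Psmb9 was at 49.1, 446, 356, 776, 571, 709, 210.5 and 135.1 CPM, and was higher at E15.5 than in adult mTEC, while its companion Psmb8 was at 3.09, 4.44, 7.81, 67.9, 301, 201, 358 and 356 CPM. Trim25, a ligase of the RIG-I pathway outside the 40 members, was at 183 and 23.3 CPM in adult cTEC replicates 1 and 2, which belong to different data sets.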
